A study of Mus musculus with 9 samples.

Results

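The proximal tubule amino acid transporters are 10 genes, taken by their symbols from the 52636 genes of the deposited tables: Slc6a19, Slc6a18, Slc6a20b, Slc6a13, Slc7a9, Slc3a1, Slc7a7, Slc7a8, Slc7a13 and Slc1a1. All 10 are protein-coding, and all 10 were among the 17114 genes that passed the filter on low counts. They were measured by RNA sequencing of whole mouse kidney in 9 libraries, 3 per genotype. WT mice carried no edited allele. The NF-KB1C59A and NF-KB1C59S mice (here C59A and C59S) were knock-ins whose Nfkb1 gene, encoding the p105 precursor of the NF-kB subunit p50, had 1 cysteine codon replaced. Both knock-in alleles also held a PGK-neo selection cassette in an intron near the codon, which WT lacked. They were made in C57BL/6NTac-derived embryonic stem cells injected into C57BL/6 blastocysts, and age, sex, litter and zygosity were not given in the labels. The genotype labels call C59A activated and C59S inactivated, while the design text, read in order, assigns reduced binding to the first allele, so the alleles are called here by name only. Nothing in the labels says that replicates were separate animals, so every p-value measures the spread between these libraries, which may be technical.

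Amino acids filtered by the glomerulus are taken back almost completely by the proximal tubule, which moves them through its apical brush border with sodium-coupled carriers and exchangers and releases them to the blood through basolateral exchangers. The early, convoluted segments carry most of the neutral amino acid uptake, and the late, straight segment takes up what remains, including cystine and acidic amino acids. Loss of the neutral carrier gives Hartnup disorder, loss of the cystine and dibasic exchanger gives cystinuria, and loss of a basolateral dibasic exchanger gives lysinuric protein intolerance.

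Promoter sequences show how the members differ upstream of their start sites. The RefSeq table (build GRCm38.p6) held windows for 8 of the 10 genes and none for Slc6a18 and Slc7a13. The first listed window of each gene was searched over the 250 bases before the start, on both strands, for CAAAGTCCA (an HNF4 core) and GGACTTTCC (an NF-kB core). The motifs were chosen after the windows had been seen. HNF4 factors are known regulators of proximal tubule genes. CAAAGTCCA was found in Slc3a1, 39 to 31 bases before the start, and in no other of the 8, and occurred in 0.381% of the 27025 genes with a window. GGACTTTCC (0.281% of genes) was in none of the 8. The windows of Slc7a9, Slc7a8, Slc3a1 and Slc6a19 are printed because these are 3 members that fell in C59A and the partner subunit, Slc3a1, that was not called. Capitals mark the CAAAGTCCA match in Slc3a1, and the last 55 bases of Slc7a9 and 44 bases of Slc7a8, annotated as transcribed in GENCODE M21, are left out.
Slc7a9, chr7:35448842-35449036 (plus strand): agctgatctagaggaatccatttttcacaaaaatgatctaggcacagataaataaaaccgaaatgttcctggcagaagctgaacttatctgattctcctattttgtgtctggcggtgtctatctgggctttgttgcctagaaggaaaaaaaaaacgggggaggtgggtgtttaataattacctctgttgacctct
Slc7a8, chr14:54781931-54782136 (minus strand): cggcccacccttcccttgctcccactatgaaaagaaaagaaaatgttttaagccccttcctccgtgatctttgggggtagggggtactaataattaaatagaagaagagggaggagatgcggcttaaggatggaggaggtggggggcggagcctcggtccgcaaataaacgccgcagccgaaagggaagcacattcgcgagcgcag
Slc3a1, chr17:85028097-85028346 (plus strand): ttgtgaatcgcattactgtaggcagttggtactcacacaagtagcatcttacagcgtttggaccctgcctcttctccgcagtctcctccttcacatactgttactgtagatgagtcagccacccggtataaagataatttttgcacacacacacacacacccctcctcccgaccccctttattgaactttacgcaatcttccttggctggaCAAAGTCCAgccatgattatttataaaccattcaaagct
Slc6a19, chr13:73692637-73692886 (minus strand): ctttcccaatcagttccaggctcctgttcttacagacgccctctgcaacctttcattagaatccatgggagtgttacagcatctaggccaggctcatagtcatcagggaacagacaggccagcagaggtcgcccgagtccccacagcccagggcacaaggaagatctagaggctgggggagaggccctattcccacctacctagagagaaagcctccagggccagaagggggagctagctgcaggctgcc
The RefSeq start of Slc6a19 lies 12229 bases, and that of Slc7a9 296 bases, inside the gene as the deposited table bounds it, so both windows lie wholly within the annotated gene. A match is a description of letters, not of a bound site.

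Levels are given as CPM, each count per 1e+06 counts of the TMM-scaled library total, and between genes as CPM per kilobase of gene length. In WT the order of mean CPM per kilobase was Slc6a18 (188 ± 69.8), Slc7a9 (73.1 ± 8.84), Slc6a19 (46.8 ± 12.3), Slc7a8 (45.3 ± 8.67), Slc6a13 (38.6 ± 8.57), Slc3a1 (32.3 ± 13.1), Slc7a7 (29.8 ± 9.68), Slc6a20b (20.6 ± 3.85), Slc1a1 (16.8 ± 4.59) and Slc7a13 (0.806 ± 0.446; SD, n = 3). Slc6a18, Slc7a9 and Slc7a13 stood apart from their neighbours in this order by more than either SD, and the 6 steps from Slc6a19 down to Slc1a1 were each smaller than the larger SD of the pair. In C59S the first and last places were the same, with Slc6a18 at 181 ± 40.2 and Slc7a13 at 0.437 ± 0.16 CPM per kilobase. In C59A the order was led by Slc7a13 (231 ± 17.5), above Slc6a18 (190 ± 20.2). The authors' deposited FPKM values gave the same leading pair, with Slc7a13 at 228 ± 15.1 and Slc6a18 at 188 ± 17.9 in C59A.

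Some features of the libraries touch every result that follows. Total counts ran from 16367403 to 25787659, so that the floor of 3 counts, under which absence cannot be judged, corresponded to 0.112 to 0.202 CPM. Mitochondrial genes took 16.4 to 19.6% of counts in WT, 20.8 to 28.8% in C59A and 20.5 to 40.6% in C59S, with C59S replicate 3 highest. Nfkb1 was read at 32.2 to 36.8 CPM in WT, 29.2 to 39.7 in C59A and 36.9 to 39.7 in C59S, and gene counts do not show the edited codon. Y-linked reads were at high levels in the C59A libraries, with traces of at most 1.15 CPM per gene elsewhere, highest in C59S replicate 3. The summed level of Ddx3y, Eif2s3y, Kdm5d, Uty and Xist was 167 to 175 CPM in C59A, with Xist at 0.191 to 0.724 CPM, while Xist reached 815 to 1270 CPM in WT and 884 to 894 in C59S. C59A can therefore not be told apart from the presence of Y-linked reads in any comparison with another genotype. The 13 proximal tubule reference genes, such as Lrp2, Cubn and Slc34a1, summed to 17800 to 19750 CPM in WT, 12290 to 16830 in C59A and 12220 to 16430 in C59S, so both knock-ins lay below WT. Most of this lay in 2 abundant genes, the phosphate carrier gene Slc34a1 (means of 6616, 4481 and 4062 CPM in WT, C59A and C59S) and Miox, myo-inositol oxygenase (4818, 2654 and 3780). Without them the other 11 summed to 6897 to 8417 CPM in WT, 6499 to 8433 in C59A and 5770 to 7462 in C59S, and the groups overlapped. In whole kidney, fewer tubule cells and less RNA per cell cannot be told apart.

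The first comparison asked how the members differed between C59A and WT kidneys. Slc7a13 rose about 287-fold, while Slc6a19, Slc7a8, Slc7a7 and Slc7a9 fell to between 0.373 and 0.602 of their WT level. Slc6a18, Slc6a20b, Slc3a1, Slc6a13 and Slc1a1 were not called. Calls used edgeR (quasi-likelihood, adjusted p under 0.05 over all 17114 genes). By this rule 1 of 10 members was higher and 4 of 10 lower, beside 3.24% and 2.46% of all tested genes. The members were chosen with earlier results of these data known, so these shares are no test of the set. The groups did not overlap, with C59A above, for 3 members (12.6% of all genes) and, with C59A below, for 4 (12% of all genes). The median log2 fold change of the 10 was -0.18, and -0.02 over all genes. With the number in the sample names as a block, 1 member, Slc7a13, was called, and with the title number as a block in these 2 genotypes alone, 2 were, Slc7a13 and Slc6a19. The sample-name block also lowered the number of all genes called, which is given in the last section.

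**Figure D1:**
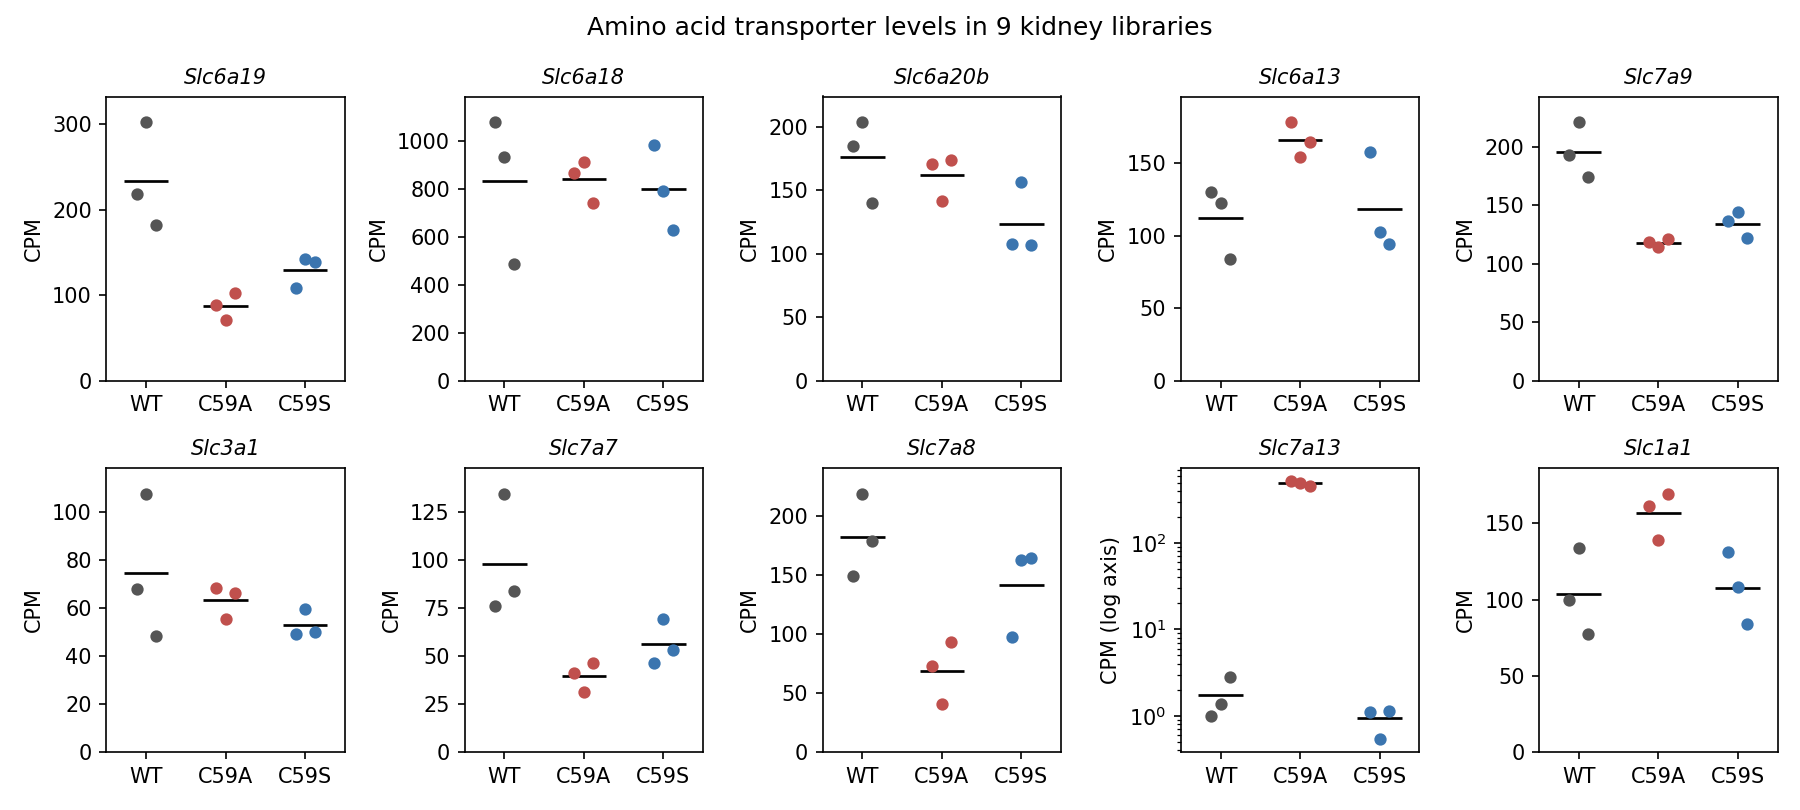
Levels in CPM (y axis) of the 10 transporters in each library of WT, C59A and C59S (x axis, 3 points each, black line at the mean); the Slc7a13 panel has a log axis. Slc6a19, Slc7a9, Slc7a7 and Slc7a8 lie lower in all 3 C59A libraries than in any WT library, and Slc7a13 lies at 453 to 527 CPM in C59A against at most 2.81 CPM elsewhere.

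Among the apical neutral carriers, Slc6a19 encodes B0AT1, the main sodium-coupled uptake route for neutral amino acids in the early proximal tubule (chromosome 13, 73679745 to 73704865, minus strand, GRCm38). It was read at 218, 302 and 182 CPM in WT, 88.5, 70.7 and 103 CPM in C59A, beside 108, 142 and 139 CPM in C59S. Both knock-in groups lay wholly below WT, and C59A lay below C59S in every library. The log2 fold change in C59A against WT was -1.42 ± 0.21 (SE; adjusted p = 0.00247, edgeR). Slc6a18 encodes B0AT3, a related neutral carrier of the later segments (chromosome 13, 73661752 to 73678023), and lies 1721 bases from Slc6a19 on the same strand. Its values were 1080, 932 and 486 CPM in WT, 866, 914 and 741 CPM in C59A, beside 983, 790 and 628 CPM in C59S. The 3 groups overlapped, and its log2 fold change in C59A was 0.01 ± 0.27 with a 95% interval of -0.58 to 0.60 (adjusted p = 0.985). That interval allows a change of either sign, and the value turned negative in 4 of 23 alternatives.

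Slc6a20b is 1 of the pair of mouse genes for the proline (imino acid) carrier family of SLC6A20 (chromosome 9, 123590800 to 123632565), and its reads may be shared with its close copy Slc6a20a. It was read at 185, 204 and 140 CPM in WT, 170, 142 and 174 in C59A, beside 108, 157 and 107 in C59S. WT and C59A overlapped, and the C59S values included the lowest of the 9. The log2 fold change in C59A was -0.12 ± 0.19 (adjusted p = 0.775). Slc6a13 encodes GAT2, a basolateral carrier for GABA and taurine (chromosome 6, 121300227 to 121337733). Its values were 130, 122 and 83.6 CPM in WT, 178, 154 and 164 in C59A, beside 158, 102 and 94.1 in C59S. All 3 C59A libraries lay above WT, at a log2 difference of 0.56 ± 0.21 that did not pass (adjusted p = 0.153).

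The cystine and dibasic exchanger is a pair of a light chain, b0,+AT, and a heavy chain, rBAT, that brings it to the brush border. The light chain gene Slc7a9 (chromosome 7, 35448796 to 35466036) was read at 192, 221 and 174 CPM in WT, 118, 114 and 121 in C59A, beside 136, 144 and 122 in C59S. Its C59A libraries lay within a CV of 2.81% and wholly below WT, with a log2 fold change of -0.73 ± 0.13 (adjusted p = 0.0071). The heavy chain gene Slc3a1 (chromosome 17, 85028347 to 85064243) was read at 67.8, 108 and 48.2 CPM in WT, 68.2, 55.4 and 66 in C59A, beside 49, 59.4 and 49.8 in C59S. WT spanned the values of both knock-ins, and the log2 fold change in C59A (-0.24 ± 0.24, adjusted p = 0.629) turned to 0.12 without WT replicate 2.

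Slc7a13 encodes AGT1, a second light chain partner of rBAT, which carries cystine and acidic amino acids in the late proximal tubule and is known for higher expression in male than in female mice (chromosome 4, 19818725 to 19842218). It held 24, 27 and 59 reads in WT (1.01, 1.36 and 2.81 CPM), 8734, 8855 and 9513 reads in C59A (527, 501 and 453 CPM), and 30, 12 and 17 reads in C59S (1.12, 0.541 and 1.15 CPM). The C59A libraries were narrowly spaced and every other library was at or near the bottom of the range, though above the floor of 3 counts. The log2 fold change in C59A against WT was 8.16 ± 0.37 (adjusted p = 1.45e-06) and ranked 3 of 17114 by p. C59S replicate 3, which held 0.809 CPM of Ddx3y and 1.15 CPM of Eif2s3y, stood at 1.15 CPM of Slc7a13. C59S replicate 1, with 0.149 CPM of Eif2s3y, stood at 1.12, and C59S replicate 2, with no Y-linked read among the 4 genes, at 0.541. In WT, replicates 1 and 2 also held no read of these 4 genes and stood at 1.01 and 1.36. WT replicate 3, with 0.143 CPM of Eif2s3y, stood above every C59S library at 2.81. All of these values rest on 12 to 59 reads. Of 11 genes listed for male-biased expression in kidney, 10 were called higher in C59A against WT, beside 3.24% of all genes. None was called in C59S, beside 0% of all genes. Their sums were 3407 to 8875 CPM in WT, 29370 to 39300 in C59A and 6689 to 13970 in C59S. Most of each sum was 1 gene, Kap, at 2937 to 8375 CPM in WT, 26020 to 37490 in C59A and 6241 to 13640 in C59S. The highest C59S sum was that of C59S replicate 1, where Kap was 13640 CPM. Of 7 listed as female-biased, 6 were called lower in C59A (2.46% of all genes), with sums of 365 to 480, 48 to 74.7 and 357 to 525 CPM in the same order. Both lists were chosen with earlier results of these data known. The part of sex-linked differences in the rise of Slc7a13 was not tested, because beyond those traces no genotype had libraries both with and without Y-linked reads.

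The pair of basolateral exchanger genes lies on chromosome 14, 304435 bases apart. Both light chains join the heavy chain 4F2hc, the product of Slc3a2. Slc7a7 (54369442 to 54417780), which encodes y+LAT1, the exit route for dibasic amino acids, was read at 75.9, 135 and 83.9 CPM in WT, 41, 31.2 and 46.5 in C59A, beside 46.6, 69.4 and 53.3 in C59S. Slc7a8 (54722216 to 54781886), which encodes the neutral exchanger LAT2, was read at 150, 219 and 179 CPM in WT, 72.6, 41 and 93.1 in C59A, beside 97.4, 163 and 165 in C59S. Both were lower in every C59A library than in any WT library, and C59A replicate 2 was lowest for both. Slc7a7 fell by 1.31 on the log2 scale (SE 0.24, adjusted p = 0.0105) and Slc7a8 by 1.41 (SE 0.30, adjusted p = 0.0261). The Slc7a8 call was lost without WT replicate 1 (adjusted p = 0.0535), WT replicate 2 (0.0787), WT replicate 3 (0.0599) or C59A replicate 1 (0.0873), and its adjusted p ran from 8.16e-05 to 0.111 over all 23 alternatives.

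Slc1a1 encodes EAAT3, the apical carrier for glutamate and aspartate (chromosome 19, 28835049 to 28913960). It was read at 99.9, 134 and 77.5 CPM in WT, 161, 139 and 170 in C59A, beside 131, 108 and 83.7 in C59S. C59A lay above both other groups in every library, with a log2 difference from WT of 0.59 ± 0.21 (adjusted p = 0.127). Without WT replicate 2 this became 0.82 and passed (adjusted p = 0.0417), the only 1 of 23 alternatives in which it did, over a range of 0.0417 to 0.4.

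**Figure D2:**
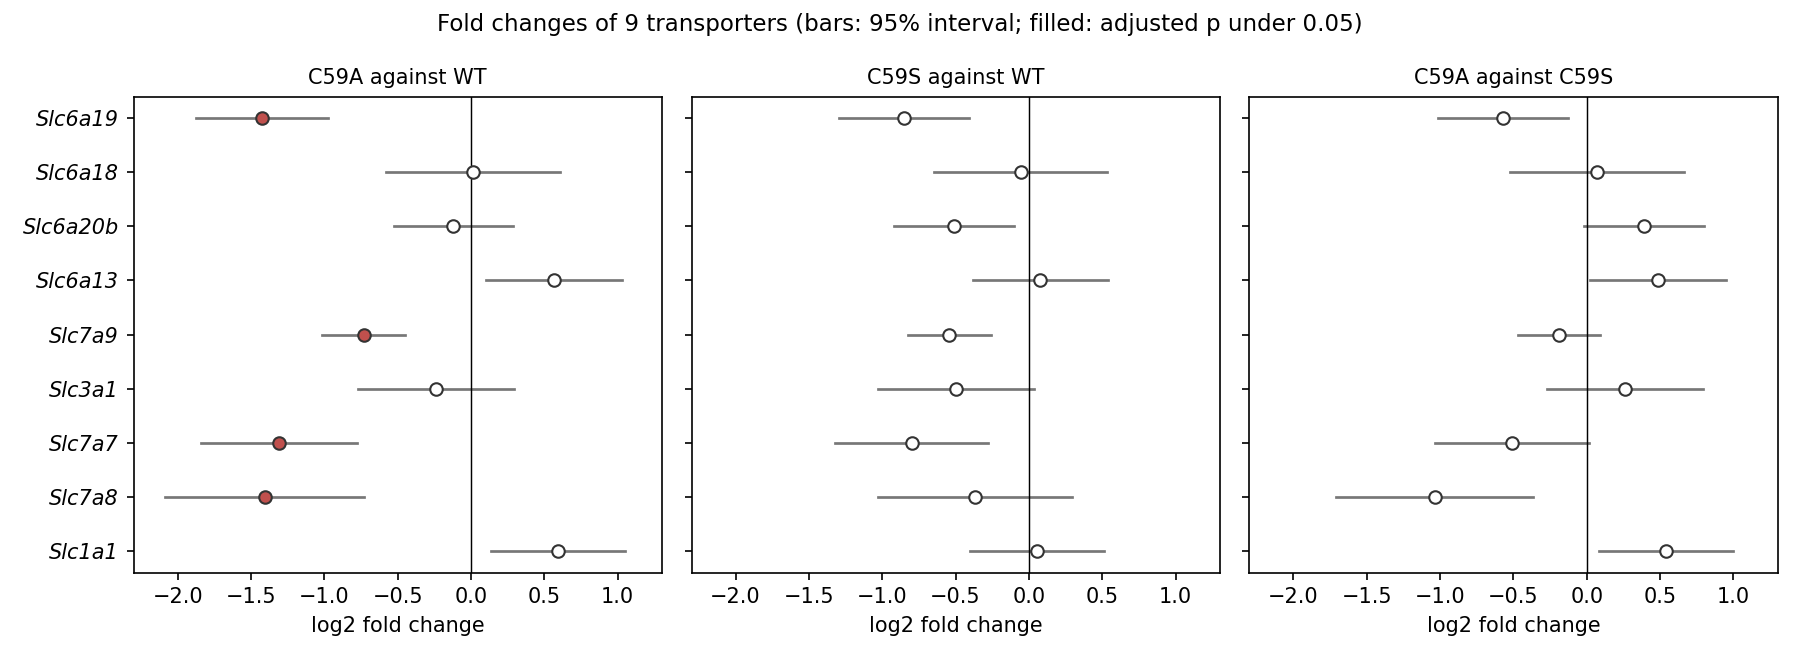
Log2 fold changes (x axis) of 9 transporters (y axis, without Slc7a13, whose values of 8.16 and 9.05 would need another scale) in the 3 comparisons, with 95% intervals of the edgeR fit; filled points passed at adjusted p under 0.05. Filled points are Slc6a19, Slc7a9, Slc7a7 and Slc7a8 in C59A against WT, and no member of the 9 is filled in the other panels.

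The second comparison asked how the members differed between C59S and WT kidneys. No member passed by edgeR, and 0% of all genes did. At an unadjusted p under 0.05 there were 5 of 10 members (18.1% of all genes), with negative fold changes for all 5, and 3 members (Slc6a19, Slc7a9 and Slc7a7) had C59S wholly below WT (11.3% of all genes). Their log2 fold changes were -0.85 ± 0.20 for Slc6a19, -0.54 ± 0.13 for Slc7a9 and -0.80 ± 0.24 for Slc7a7, with adjusted p of 0.13, 0.129 and 0.156. The other 2 at an unadjusted p under 0.05 were Slc6a20b (-0.51 ± 0.19) and Slc7a13 (-0.89 ± 0.39). The Slc7a13 value rested on WT replicate 3 and was -0.34 without it. Slc6a18 (-0.06 ± 0.27), Slc6a13 (0.08 ± 0.21) and Slc1a1 (0.06 ± 0.21) were nearest to 0, with 95% intervals of -0.65 to 0.53, -0.38 to 0.54 and -0.40 to 0.51 in that order. Slc3a1 (-0.50 ± 0.24) and Slc7a8 (-0.37 ± 0.30) lay between. Slc3a1 was -0.14 without WT replicate 2, and Slc7a8 was -0.22 without WT replicate 2 and -0.15 without C59S replicate 1.

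Slc6a19, Slc7a9 and Slc7a7 were also the members that 2 other fits called lower in C59S. In a fit of the 6 WT and C59S libraries blocked on the number in the titles, which pairs the replicates, added after seeing the data, adjusted p was 0.0419 for Slc6a19, 0.0394 for Slc7a9 and 0.032 for Slc7a7, beside 2.34% of all genes called lower. DESeq2 gave 0.00847, 0.00424 and 0.0378, beside 2.59% of all genes. Over the 23 alternatives the adjusted p of the 3 genes ran from 0.00847 to 1, from 0.00424 to 1 and from 0.032 to 1. Without WT replicate 3, edgeR called Slc6a19 (-1, adjusted p = 0.0293) and Slc7a9 (-0.62, 0.0345). Leaving out that library also raised the number of all genes called, from 0 with every library in. That number is given in the last section. These fits use the same libraries and the same WT controls as the C59A comparison, so they are no independent evidence for either.

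The third comparison set the 2 knock-ins against each other. Here too the allele cannot be told apart from Y-linked reads, which C59A held at high levels. Slc7a13 was higher in C59A by 9.05 ± 0.39 on the log2 scale (adjusted p = 9e-07), 1 member of 10 beside 3.35% of all genes, and no member was called lower, beside 2.56%. Groups did not overlap, with C59A above, for Slc7a13 and Slc1a1 (14.7% of all genes) and, with C59A below, for Slc6a19, Slc7a9, Slc7a7 and Slc7a8 (14.5% of all genes). Of these Slc7a8 was nearest to the threshold, at -1.04 ± 0.30 (adjusted p = 0.0767, from 0.00575 to 0.229 over the alternatives). The difference was -0.57 ± 0.20 for Slc6a19 (adjusted p = 0.123), -0.51 ± 0.24 for Slc7a7 (0.23) and -0.19 ± 0.13 for Slc7a9 (0.421). For the last 3 genes the 95% intervals ran from -1.01 to -0.13, from -1.04 to 0.01 and from -0.47 to 0.09, and none passed after adjustment, so neither a difference between the groups nor the same response was shown for them. The other members stood at 0.54 ± 0.21 (Slc1a1, adjusted p = 0.15), 0.49 ± 0.21 (Slc6a13, 0.196), 0.39 ± 0.19 (Slc6a20b, 0.244), 0.26 ± 0.24 (Slc3a1, 0.569) and 0.07 ± 0.27 (Slc6a18, 0.91), none called.

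Ratios within a library do not depend on library scaling. The level of Slc7a13 per kilobase relative to Slc7a9 was 0.00656, 0.00768 and 0.0202 in WT, 5.56, 5.49 and 4.69 in C59A, beside 0.0103, 0.00468 and 0.0117 in C59S. In C59A the late-segment light chain transcript thus exceeded the other light chain in all 3 libraries, and in the 6 other libraries it was far below it. Per kilobase, both light chains together stood at 1.78 to 3.17 times the heavy chain Slc3a1 in WT, 2.11 to 2.42 times in C59S and 8.97 to 11.5 times in C59A. The ratio of Slc6a18 to Slc6a19 was 5.61, 3.5 and 3.02 in WT, 11.1, 14.6 and 8.18 in C59A, beside 10.3, 6.31 and 5.13 in C59S. C59A lay wholly above WT, and C59S overlapped both. The ratio of Slc1a1 to Slc6a19 was 0.359 ± 0.0134 in WT, 1.47 ± 0.127 in C59A beside 0.697 ± 0.256 in C59S (SD, n = 3), with no overlap between any of the 3 groups. Other ratios overlapped between C59A and WT: Slc7a8 to Slc7a7 was 1.33 to 1.74 in WT and 1.07 to 1.64 in C59A, and Slc7a9 to Slc3a1 was 1.77 to 3.11 and 1.5 to 1.78.

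**Figure D3:**
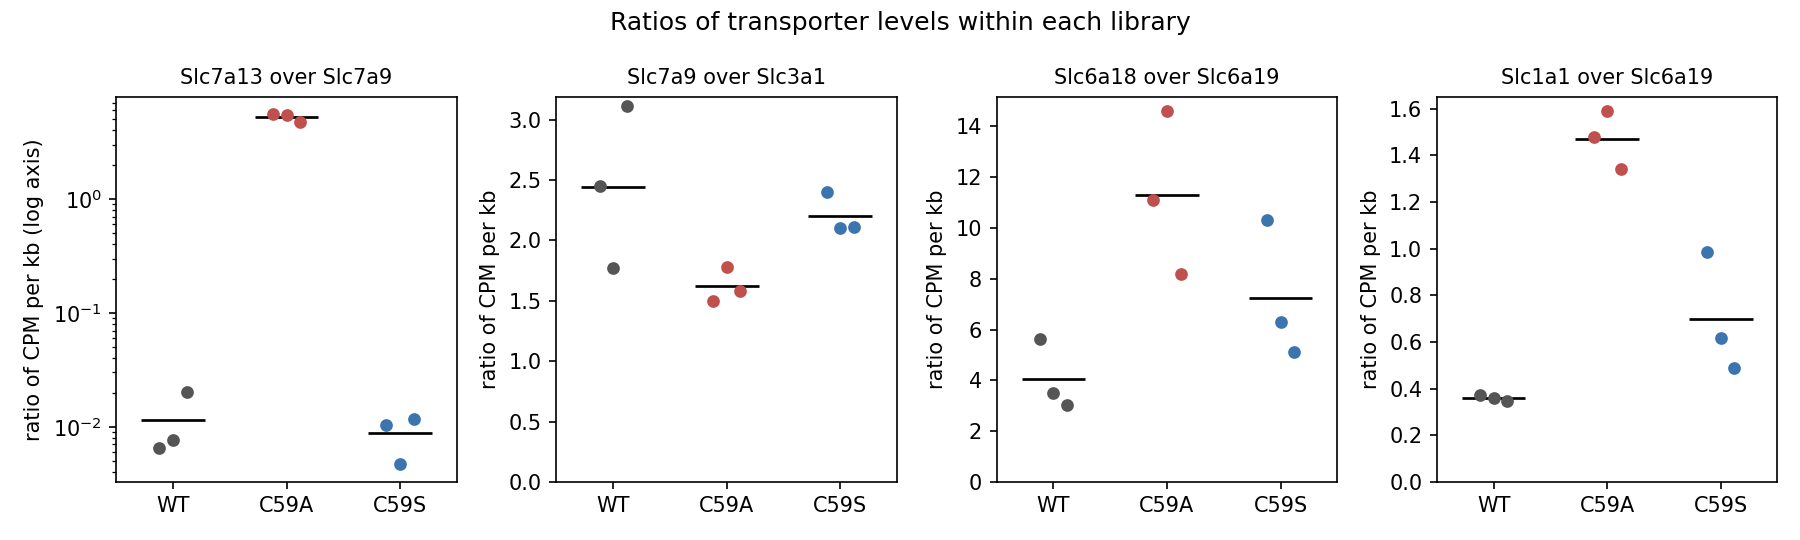
Ratios of CPM per kilobase (y axis) between pairs of transporters in each library of the 3 genotypes (x axis, 3 points each, black line at the mean); the first panel has a log axis. The Slc7a13 to Slc7a9 ratio is 4.69 to 5.56 in C59A and at most 0.0202 elsewhere, and the Slc1a1 to Slc6a19 ratio separates all 3 groups.

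The summed level of the 10 transporters was 532, 584 and 361 CPM per kilobase in WT, 671, 634 and 615 in C59A, beside 443, 420 and 353 in C59S. The C59A sums were highest because of 1 gene: Slc7a13 made up 36 ± 1.4% of the sum in C59A, 0.187 ± 0.153% in WT and 0.11 ± 0.0462% in C59S (SD, n = 3). Without it the sums were 425, 400 and 404 in C59A, inside the WT range of 360 to 584, as 2 of the 3 C59S sums were. Slc6a18 held 37.5 ± 7.78% of the sum in WT, 29.7 ± 2.73% in C59A and 44.4 ± 5.2% in C59S.

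**Figure D4:**
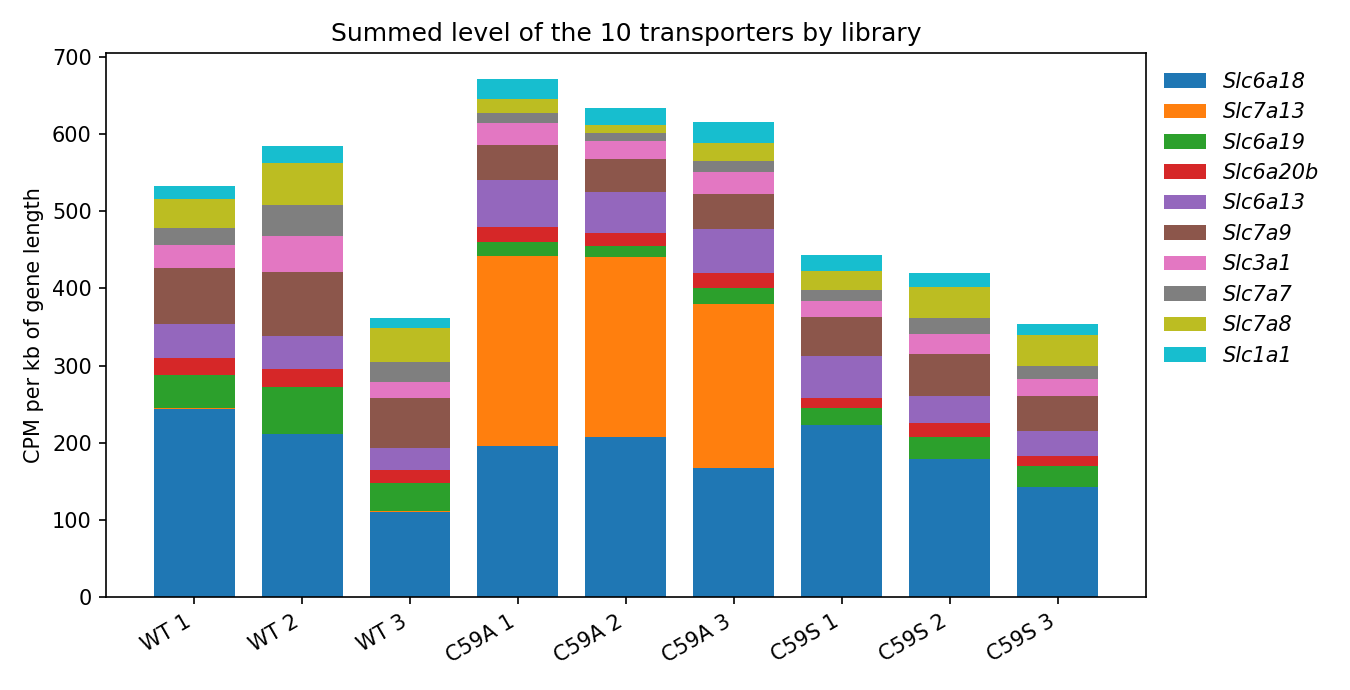
Stacked levels in CPM per kilobase (y axis, from 0) of the 10 transporters in each of the 9 libraries (x axis). Slc6a18 is the largest block in the WT and C59S libraries, and Slc7a13 is visible as a block only in the 3 C59A libraries, where it takes 34.4 to 36.9% of the sum.

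Over the 9 libraries the members that fell in C59A correlated with each other, and within genotypes also with members that did not fall. Pearson's r of log2 CPM was 0.974 between Slc6a19 and Slc7a7, 0.944 between Slc6a19 and Slc7a9, 0.931 between Slc7a9 and Slc7a7, 0.898 between Slc7a7 and Slc7a8, 0.897 between Slc6a19 and Slc7a8 and 0.739 between Slc7a9 and Slc7a8. With the genotype means removed these were 0.886, 0.662, 0.713, 0.808, 0.805 and 0.255, lowest for the last pair. With the means removed, Slc7a9 went more closely with Slc3a1 (0.893), Slc1a1 (0.886) and Slc6a20b (0.84), and Slc6a19 with Slc3a1 had 0.864. A second pair, Slc6a13 and Slc1a1, had r = 0.912 (0.812 with the means removed), and Slc6a20b and Slc3a1 had 0.842 (0.805). These are descriptions over 9 libraries that share scaling and tissue makeup. Of 14998 other genes of at least 1 CPM, those with the highest r to Slc6a19 were Spata13 (0.983), the member Slc7a7 (0.974), Phactr2 (0.973), 4931406P16Rik (0.972) and Slc5a2, the early-segment glucose carrier (0.97). Each had its highest mean in WT and its lowest in C59A, as Slc6a19 had. These r therefore include the group differences, and a link to Slc6a19 was not tested. Those nearest to Slc7a13 were the Y-linked Gm29650 (0.995) and Kdm5d (0.988), Neurog2 (0.994), Gm11827 (0.987) and Osbpl9 (0.985). Spearman's r was 0.87, 0.731, 0.895, 0.85 and 0.9 in that order. Gm29650, Kdm5d and Neurog2 had means of 0 to 0.0349 CPM in WT and C59S, so they reached 1 CPM through C59A alone. Any gene read almost only in C59A has a high r with Slc7a13. The ranking therefore describes the group difference, and a link between these genes was not tested.

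Some markers of tubule segments also differed in C59A. Of 5 early-segment (S1) genes, Slc5a2 (-1.44 ± 0.23, adjusted p = 0.00412) and Slc34a3, a phosphate carrier (-1.11 ± 0.18, adjusted p = 0.00439), fell in C59A. All 5 had negative fold changes in C59A and in C59S, though Slc2a2 and Slc4a4 were near 0 in C59A (-0.16 ± 0.21 and -0.15 ± 0.28). Their summed level was 1053 to 1556 CPM in WT, 471 to 828 in C59A and 537 to 782 in C59S. Of 8 late-segment (S3) genes, Slc5a8, a monocarboxylate carrier (1.62 ± 0.14), Cyp7b1, an oxysterol hydroxylase also known for male-biased expression (6.46 ± 0.50), the aminoacylase Acy3 (1.78 ± 0.26) and Atp11a (1.803 ± 0.38) rose in C59A and none was called lower, with sums of 697 to 1856 CPM in WT, 2810 to 3300 in C59A and 1349 to 1854 in C59S. Of the 4 S3 genes not called, 2 had negative values, Aadat (-1.48 ± 0.51, adjusted p = 0.148) and the glucose carrier gene Slc5a1 (-0.28 ± 0.16). No S1 or S3 gene was at 0 in a whole group. The lists were chosen with earlier results of these data known, and their part in the members' values was not tested. Of the 13 proximal tubule reference genes only Ggt1, gamma-glutamyltransferase, was called in C59A (0.83 ± 0.16), and 10 of 13 had negative fold changes in each knock-in against WT.

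When libraries were scaled on those 13 genes, the median log2 fold change over all genes against WT became 0.16 for C59A and 0.31 for C59S. On this scale Slc6a19 (-1.26 ± 0.19, adjusted p = 0.0011), Slc7a7 (-1.14 ± 0.20, 0.00288) and Slc7a8 (-1.28 ± 0.22, 0.00284) were still called lower in C59A, whereas Slc7a9 was not (-0.55 ± 0.18, 0.123). Slc7a13 remained higher (8.36 ± 0.45). In C59S the values were -0.55 ± 0.19 for Slc6a19, -0.50 ± 0.20 for Slc7a7 and -0.24 ± 0.18 for Slc7a9, none called. Between the knock-ins Slc7a8 was then called lower in C59A (-1.21 ± 0.22, adjusted p = 0.00575).

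**Figure D5:**
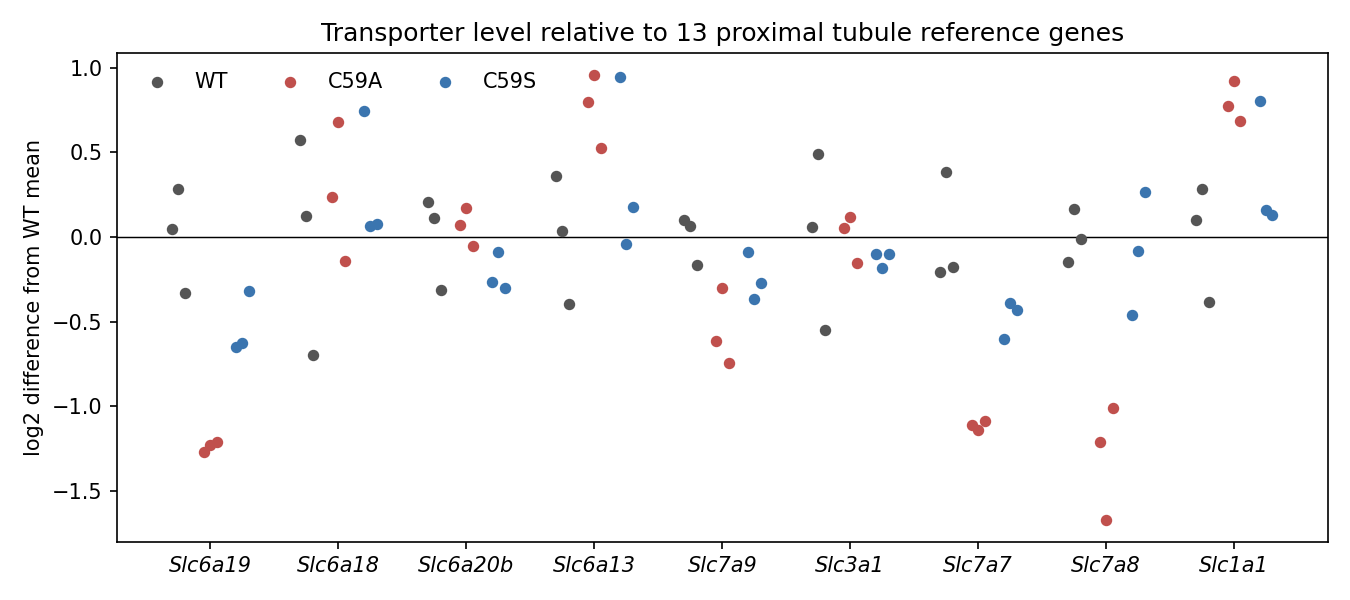
Log2 CPM of 9 transporters (x axis, without Slc7a13) minus the mean log2 CPM of 13 proximal tubule reference genes, as a difference from the WT mean (y axis), 1 point per library. The C59A points of Slc6a19 (-1.27 to -1.21), Slc7a7 (-1.14 to -1.09) and Slc7a8 (-1.67 to -1.01) lie below all WT and C59S points.

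Marker sums of other kidney cells also differed. Against WT (2307 to 3539 CPM), the sum of 4 distal convoluted tubule genes was lower in C59A (963 to 1478) and in C59S (1527 to 1715). Most of this sum was Slc12a3 (means of 2460, 1053 and 1357 CPM in WT, C59A and C59S). In C59A all 4 genes had negative values and 2 were called. In C59S none was called, 3 were negative, and Pvalb stood at 0.003 ± 0.29. Endothelial genes (6 genes, 154 to 358 CPM in WT) summed to 405 to 599 in C59S and 242 to 291 in C59A. Adipocyte genes (5 genes, 27.1 to 63.2 CPM in WT) summed to 151 to 1150 in C59S and 155 to 234 in C59A. In WT, C59A replicate 2 and C59S replicate 1 this sum was almost all Fabp4. In C59A replicate 2 and C59S replicate 1 Fabp4 stood at 160 and 149 CPM, with Adipoq at 0.17 and 0.224 CPM. The sums of 5 thick ascending limb, 7 collecting duct, 5 podocyte, 6 fibroblast and 8 tubular injury genes overlapped between WT and each knock-in. Still, 3 collecting duct genes (Foxi1, Slc26a4 and Atp6v1b1) and 1 podocyte gene were called lower in C59A. Of the 7 collecting duct genes 4 had negative and 3 positive values in C59A. Among the positive ones, Aqp2 (1.12 ± 0.35) and Aqp3 (0.56 ± 0.25) were not called (adjusted p = 0.0994 and 0.229, edgeR). The injury sum was almost all Spp1, osteopontin, which was -0.80 ± 0.29 in C59A against WT (adjusted p = 0.139, edgeR). Of the 8 injury genes 4 had positive and 4 negative values in C59A, with none called. The injury genes Havcr1 (2.47 ± 0.86), Lcn2 (2.37 ± 0.84) and Timp1 (2.11 ± 0.62) had positive values in C59A that were not called (adjusted p = 0.137, 0.157 and 0.0732). The same held for the fibroblast genes Postn (3.46 ± 0.63) and Lum (2.23 ± 0.38) in C59S (adjusted p = 0.121 and 0.112). Of 8 leukocyte genes 3 were called higher in C59A (S100a8, Csf3r and Itgam), with sums of 23.1 to 37.2 CPM in WT, 32 to 50.9 in C59A and 26.9 to 49.6 in C59S. Their part in the members' values was not tested.

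Of 45 other amino acid transporter genes 37 passed the filter, and in C59A against WT 1 was called higher and 2 lower, with a median log2 fold change of -0.04. Slc16a10, the basolateral aromatic amino acid carrier TAT1 (37 ± 7.88 CPM in WT and 20.4 ± 3.65 in C59A), fell by 0.86 (SE 0.18, adjusted p = 0.0154), and the cationic carrier gene Slc7a2 by 0.93 (SE 0.24, adjusted p = 0.0477). Slc6a9, the glycine carrier GlyT1, rose from 5.12 ± 0.356 to 9.24 ± 2.59 CPM (adjusted p = 0.04). The shared heavy chain gene Slc3a2 stood at 236 ± 40.1 CPM in WT, 191 ± 62.1 in C59A beside 235 ± 35.5 in C59S (SD, n = 3), within the spread of the libraries. In C59S against WT none of the 37 passed, and in C59A against C59S Slc6a9 (1.14 ± 0.22) and Slc36a1, a proton-coupled amino acid carrier (0.80 ± 0.19), were higher.

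Of 16 partner and brush border peptidase genes, 4 rose and 1 fell in C59A against WT. The dipeptidase gene Cndp2 (1.74 ± 0.21), the leucine aminopeptidase gene Lap3 (1.36 ± 0.20), Mep1a, a meprin subunit (1.06 ± 0.22), and Ggt1 rose, and Dpp4, dipeptidyl peptidase 4 (-0.70 ± 0.14), fell. The carrier partner Tmem27, or collectrin (0.21 ± 0.26), was not called. Of 33 genes of renal amino acid metabolism 4 rose and 5 fell. Oat, ornithine aminotransferase (-1.46 ± 0.14), Prodh2, hydroxyproline dehydrogenase (-1.45 ± 0.20), Cbs, cystathionine beta-synthase (1.33 ± 0.14), and Acy3 had the smallest p. Among 9 transcription factor genes of the proximal tubule, Nr1h4, the bile acid receptor FXR (1.06 ± 0.17), rose and Maf (-0.85 ± 0.19) fell in C59A. Of 14 genes of the amino acid stress response only Cebpb (0.96 ± 0.14) was called.

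In C59S against WT no gene of these 4 lists passed. Between the knock-ins, 4 partner and peptidase genes were higher and 1 lower in C59A (the same 5 as against WT), 4 metabolism genes were higher and 3 lower, 1 transcription factor gene was higher (Nr1h4, 1.41 ± 0.17) and 1 lower (Cebpa, -0.86 ± 0.22), and of the stress response genes Cebpb and Psat1 were higher and Phgdh (-1.09 ± 0.19) was lower. Ggt1, Acy3, Cyp7b1, Odc1, Slc7a12 and Slc4a4 each stand in more than 1 of the lists used here, which are therefore not independent. Odc1 stands in both the metabolism and the male-biased list.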

How the data were processed

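Whole-kidney RNA was extracted with TRIzol and sequenced from NEBNext Ultra libraries, per the labels' protocols. The submitters' processing notes name the GRCm38 build and, as tools, DESeq2 1.20.0, featureCounts 1.5.0-p3, CASAVA 1.8, HISAT2 2.0.5 and fastp. The authors deposited raw read counts per gene and FPKM values for the 9 libraries (16367403 to 25787659 counts each). The 3 libraries of each genotype were grouped by their labels. The counts were tested with edgeR 4.0.16 (TMM scaling, filterByExpr, robust quasi-likelihood fit of all 9 libraries, Benjamini-Hochberg adjustment over 17114 genes, called at adjusted p under 0.05) in R 4.3.3. FPKM values, as deposited, served for levels and for limma 3.58.1 alternatives on log2(FPKM + 1) and log2(FPKM + 0.1). Alternatives also used DESeq2 1.42.0, voom, other scalings and filters, replicate blocks, the mitochondrial share and leaving out each library. Tested on simulated counts of C59A against WT over 16935 genes, the fit recovered 74% of 2-fold and 100% of 4-fold changes, and 7.45% of its calls were false, above the 5% aimed at. Tables and figures used Python 3.11.15, pandas 2.3.3 and matplotlib 3.10.9.

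The members and all gene lists were chosen with earlier results of these data known, and the motifs after seeing the promoter windows. All 10 members are described; of each other list, counts and up to 4 called genes of smallest p per comparison are named, and for Slc6a19 and Slc7a13 the 5 genes of highest Pearson r of log2 CPM (prior count 2). Any other named gene was chosen after its values were seen. Pairing was checked by correlating the deviations of same-numbered libraries from their group means. For the title numbers r was 0.318, 0.195 and 0.256 between C59S and WT, beside -0.25 to 0.0085 for libraries of different numbers. Between C59A and WT it was -0.0944 to 0.0491, beside -0.213 to 0.178 for different numbers. Between C59A and C59S it was -0.288 to 0.0499, beside -0.253 to 0.294 for different numbers. The main fit did not use pairs, and blocks on these numbers entered only as alternatives. The title-number block on C59S and WT alone was added after these data had been seen. The labels do not say what the numbers mark. Some items are not reported here.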

Additional observations from a re-analysis of the deposited data

How the results depend on the processing

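Over 23 alternatives, 634 of 690 member values kept their direction and side of the threshold, 26 changed sign, 16 came to pass and 14 ceased to pass; the causes were not tested. Every sign change was in a value that did not pass. For C59A against WT, 5 members were called (4 to 5 with any 1 library left out), 1 with the replicate block of the sample-name number (where Slc6a19 had adjusted p = 0.0501, Slc7a8 0.0714, Slc7a7 0.0957 and Slc7a9 0.203) and 2 with the title-number block in these genotypes alone (Slc7a9 0.0601, Slc7a7 0.0787, Slc7a8 0.0791). In the sample-name block, WT replicate 1 and C59S replicate 1 carry numbers that no other library shares. For C59S against WT, 0 were called (0 to 2 with a library left out, 2 without WT replicate 3), 1 with no filter, and 3 with DESeq2 or the title-number pairing. For C59A against C59S, 1 was called (1 to 2, 2 without C59S replicate 1), 2 with library totals, the proximal tubule scaling or DESeq2, and 3 with voom. The number of all genes called also moved in many of these fits, as given at the end of this section.

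The log2 values that changed sign were as follows. With library totals, Slc6a18 was -0.215 in C59A against WT, and Slc6a13 -0.0951 and Slc1a1 -0.11 in C59S against WT. With the proximal tubule scaling, Slc6a20b was 0.047 in C59A against WT, and Slc6a18 0.243 in C59S against WT and -0.036 in C59A against C59S. With the sample-name block, Slc6a20b was 0.00398 in C59A and Slc6a18 0.336 in C59S; with the mitochondrial share as covariate, they were 0.00379 and 0.0468. With voom, Slc6a13 was -0.0496 and Slc1a1 -0.0114 in C59S; on log2 FPKM, Slc6a18 was 0.0113 and 0.0118. Leaving out 1 library, Slc6a18 ran from -0.255 (without WT replicate 3) to 0.245 in C59A against WT, from -0.324 to 0.175 in C59S against WT and from -0.0784 to 0.244 in C59A against C59S. Slc3a1 ran from -0.468 to 0.124 in C59A against WT, and in C59S against WT Slc6a13 ran from -0.186 to 0.22 and Slc1a1 from -0.112 to 0.28.

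Genes called in C59A against WT numbered 975, but 1622 with DESeq2, 599 with the proximal tubule scaling, 434 with the mitochondrial share, 128 with the sample-name block, 390 with the title-number block, 530 without WT replicate 1, 536 without C59A replicate 1 and 502 without C59A replicate 3. With library totals 216 were higher and 862 lower, against 554 and 421. In C59S against WT edgeR called 0 (3092 at unadjusted p under 0.05), but 670 with DESeq2, 638 paired by title number, 308 with no filter, 20 with library totals, 737 without WT replicate 3, 33 without C59S replicate 1 and 1 without C59S replicate 2. In C59A against C59S there were 1012, but 1765 with DESeq2, 1687 with voom, 670 with library totals, 657 and 670 on FPKM, 474 with the proximal tubule scaling, 517 with the mitochondrial share, 118 and 334 with the 2 blocks, and 370, 405, 433 and 318 without C59A replicate 1, C59A replicate 3, C59S replicate 2 and C59S replicate 3.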
